A study of Mus musculus with 16 samples.

Results

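The genes described here are 6 carbonic anhydrases (Car1, Car2, Car4, Car8, Car12 and Car13) and 2 aquaporins (Aqp4 and Aqp8), which were found by gene symbol among the 22396 symbols of the deposited RNA-seq tables. All 8 were listed. The RNA came from EpCAM+ cells that were sorted out of the distal colons of 16 mice, 8 weeks old in the study's methods. All mice carried floxed Tnfr2 alleles (Tnfr2-f/f), and the groups were 4 controls (cages a and b) and 5 Vil1::Cre;Tnfr2-f/f mice (the same cages) on water, and 3 controls and 4 Vil1::Cre;Tnfr2-f/f mice (cages c and d) that drank dextran sulfate sodium (DSS) at 3% over 6 days. The labels place dissection at day 12 for every mouse. The paper's text gives a higher DSS concentration, calls the uninjured mice day 0, and describes the DSS-treated cells as taken from the injured regions, so treatment, cage and the part of the colon sampled cannot be told apart. All DSS-treated mice and water cage b were female, and water cage a was male.

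Carbonic anhydrases interconvert carbon dioxide and bicarbonate. In colonocytes they supply the bicarbonate and protons that are exchanged for luminal chloride and sodium, and aquaporins let water follow the absorbed salt. Car1, Car2 and Car13 are cytosolic enzymes, Car4 is anchored to the outer face of the apical membrane, Car12 is a transmembrane enzyme with an extracellular active site, and Car8 lacks catalytic activity. Aqp8 and Aqp4 are water channels, known from the apical membrane of surface colonocytes and from the basolateral membrane of epithelial cells. DSS is a polymer that injures the colonic epithelium, and TNFR2, encoded by Tnfrsf1b, is a receptor of tumor necrosis factor.

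Levels are TPM, a unit of transcript abundance corrected for transcript length, as the authors' quantification gave them. The water and DSS tables were scaled apart, so values of both treatments are set side by side after a single rescaling of all 16 mice (factors of 0.905 to 1.24), and differences between treatments are descriptions without a test. Before that rescaling the median gene was 0.31 higher after DSS on the log2(TPM + 1) scale, and after it 0.005 higher. The listed transcripts added up to 487469 to 861109 TPM in a mouse, and 10310 to 10961 genes reached 1 TPM. Epcam, the sorting marker, had 676 ± 49.9 rescaled TPM (SD, n = 9) on water and 796 ± 28.3 (SD, n = 7) after DSS. The 6 epithelium markers did not move as one on the log2(TPM + 1) scale, where Epcam (0.24) and Cdh1 (0.24) were higher after DSS and Krt8 (-0.62), Krt19 (-0.44), Krt18 (-0.39) and Vil1 (-0.23) lower. Krt20, a keratin of mature colonocytes, had 166 ± 27.3 and 157 ± 35.4 (SD, same mice). The TPM of the targeted gene Tnfrsf1b overlapped between genotypes and on water ranged from 11.1 to 15.5 for controls and from 9.23 to 14.8 for labelled knockouts, and after DSS from 13.3 to 22.2 and from 13.5 to 27.0. The study's methods name exon 2 as the floxed part, which holds 103 of the 3818 bases of the listed transcript (GRCm38 chr4:145229004-145229106), so this TPM is no check of the deletion. The study's own checks of TNFR2, by flow cytometry and qPCR, were not analysed here, and the Vil1::Cre mice are called labelled knockouts after their labels. DSS-treated control 3, from cage c, stood apart from the other DSS-treated mice. Its goblet and deep crypt secretory markers summed to 8150 rescaled TPM against 2228 to 3463 in the others.

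The carbonic anhydrases differed in direction between treatments. Car4 was lower and Car12 higher in every DSS-treated mouse than in any water-treated mouse, and the same held for the water channel Aqp4, which was higher. These were 3 of the 8 genes. Of 11207 genes that averaged 1 TPM or more, 4.49% were higher without overlap after DSS and 7.04% were lower without overlap. Without DSS-treated control 3 the count was 5, as Car8 and Car13 were then also higher without overlap, beside 12.2% of all genes higher and 12.0% lower. In bulk samples, fewer cells of a type and less RNA per cell cannot be told apart.

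**Figure D1:**
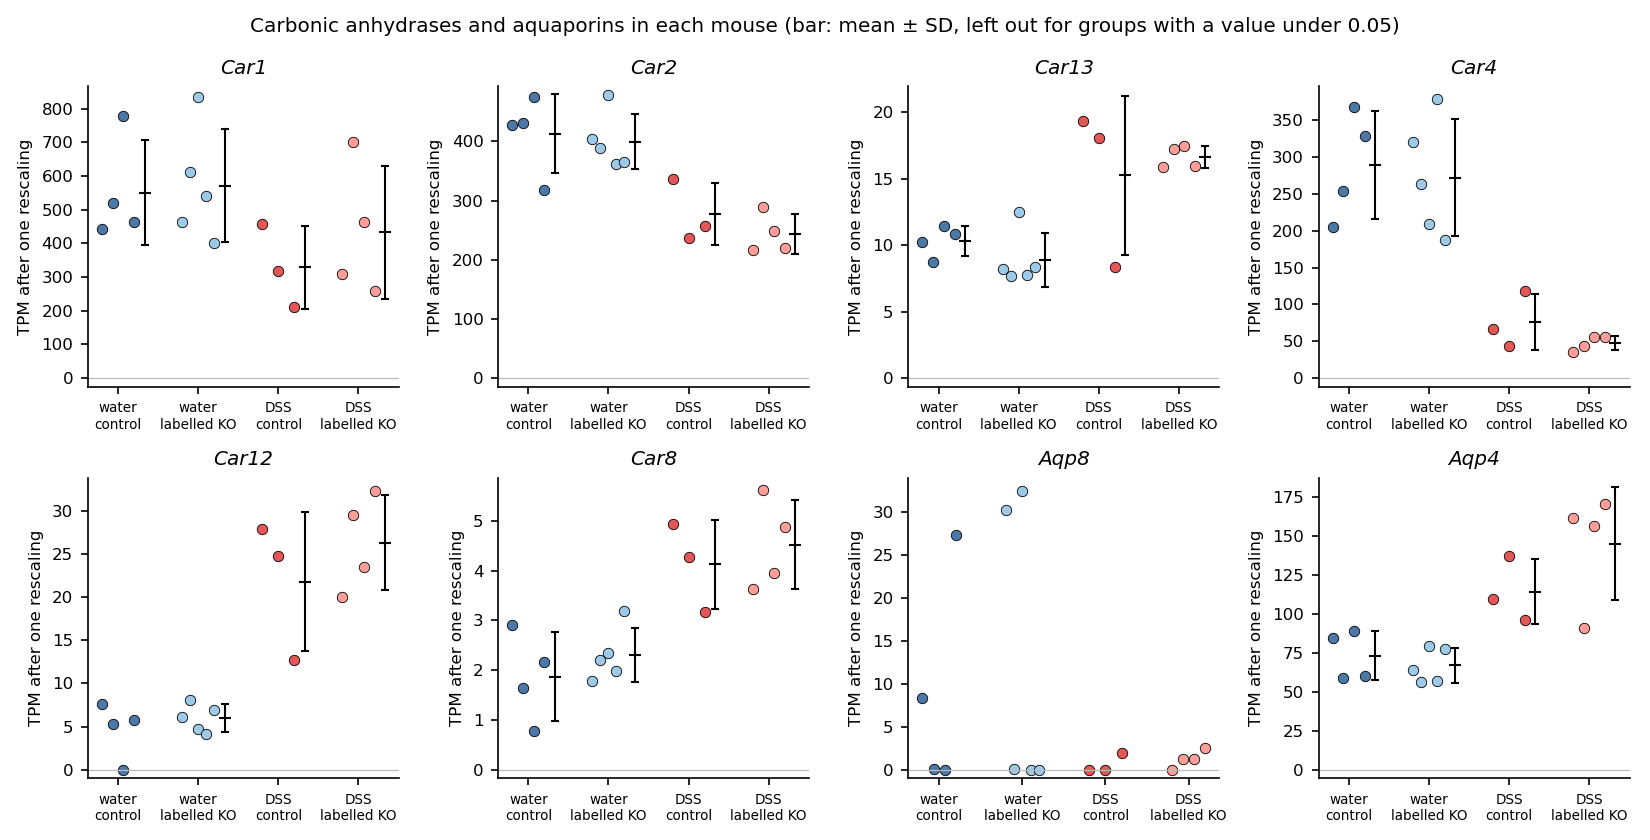
Rescaled TPM of each gene (y axis) in the 4 groups (x axis), with a point for each mouse and, beside it, the mean ± SD, left out for groups with a value under 0.05. Car4 lay between 187 and 379 in the water-treated mice and between 36.0 and 118 after DSS, and Car12 between 0 and 8.11 and between 12.7 and 32.3.

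Car4, the apical enzyme, showed the largest difference among the abundant members. In the water-treated controls Car4 had 192, 233, 335 and 301 TPM, and in the water-treated labelled knockouts 300, 240, 197, 343 and 171 TPM. After DSS the controls had 77.1, 49.3 and 146 TPM and the labelled knockouts 42.8, 52.1, 66.0 and 64.7 TPM. The lowest water-treated mouse thus lay above the highest DSS-treated mouse, DSS-treated control 3. On the rescaled TPM scale the mean was 280 ± 72.1 (SD, n = 9) on water and 59.8 ± 27.5 (SD, n = 7) after DSS, 4.68-fold lower. The fold was 3.80 in controls and 5.71 in labelled knockouts, a difference that was not tested. The control fold includes DSS-treated control 3, with 118 rescaled TPM against 66.9 and 43.5 in the other DSS-treated controls. The percentile rank of Car4 among all genes of a mouse, which no scaling changes, was 98.8 ± 0.253 on water and 95.5 ± 1.55 after DSS. Without DSS-treated control 3 the DSS mean was 50.2 rescaled TPM.

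Car12, the transmembrane enzyme, differed in the other direction. The water-treated controls had 7.13, 4.88, 0 and 5.28 TPM, and the labelled knockouts 5.75, 7.41, 4.38, 3.70 and 6.38 TPM. After DSS the controls had 32.3, 28.1 and 15.8 TPM and the labelled knockouts 23.9, 35.3, 27.9 and 37.9 TPM. Every DSS-treated mouse was above every water-treated mouse, and DSS-treated control 3 was again the nearest to the water-treated mice. The rescaled mean was 24.4 TPM after DSS and 5.41 on water, 4.51-fold higher, where the water mean includes water-treated control 3, in which the transcript was listed at 0. The ratio of Car4 to Car12 TPM within a mouse, which is free of the scaling of the tables, was 26.9 to 92.8 in the 8 water-treated mice with Car12 above 0 and 1.48 to 9.23 in the 7 DSS-treated mice.

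The promoters of Car4 and Car12 are shown because these enzymes lay without overlap in opposite directions. Each sequence runs from 250 bases before to 50 bases after the RefSeq start site on GRCm38.p6, 5′ to 3′ on the plus strand, and lies at chr11:84957504-84957803 for Car4 and at chr9:66713436-66713735 for Car12. Capitals mark matches on either strand to TATAAA (the core of the TATA box), ACGTG (the core of hypoxia response elements) and TTTAT (the core of caudal-type homeobox sites), and the reverse complement of TTTAT lies within TATAAA.
Car4: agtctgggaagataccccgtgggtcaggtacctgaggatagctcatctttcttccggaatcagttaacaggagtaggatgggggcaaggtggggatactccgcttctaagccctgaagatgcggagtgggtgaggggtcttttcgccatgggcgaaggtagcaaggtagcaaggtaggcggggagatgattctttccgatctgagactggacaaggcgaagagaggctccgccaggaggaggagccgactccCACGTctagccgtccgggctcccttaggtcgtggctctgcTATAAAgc
Car12: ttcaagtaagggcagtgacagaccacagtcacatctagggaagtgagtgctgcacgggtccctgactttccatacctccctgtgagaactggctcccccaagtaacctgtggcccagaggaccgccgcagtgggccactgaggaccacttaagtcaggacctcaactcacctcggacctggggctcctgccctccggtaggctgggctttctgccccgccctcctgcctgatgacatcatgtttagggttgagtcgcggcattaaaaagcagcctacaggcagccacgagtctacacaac

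The Car4 window held ACGTG on the minus strand, read as CACGT and starting 2 bases after the start site, and TATAAA starting 42 bases after it. The Car12 window held none of the 3 motifs. Of 32851 RefSeq promoters of this length, 13.6% held TATAAA, 19.6% ACGTG and 13143 promoters TTTAT. The promoter of Aqp8 was the only other member's in the reference table. It held CACGTG, which reads ACGTG on both strands, at base -75 counted from the start site, and TTTAT at base -6. These matches describe letters and say nothing of binding.

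The Car12 value stands for a single isoform. The listed transcript (ENSMUST00000071889, plus strand, in a gene at chr9:66713686-66766845) has a 30-base exon that the other long protein-coding transcript lacks, and codes for 354 residues against 344. Only 1.19% of its 31-base words, the unit that kallisto matches, are absent from the gene's other 5 annotated transcripts, so the level depends on how reads were divided among isoforms. The Car4 transcript (ENSMUST00000103194, in a gene at chr11:84957786-84966044) has 5.87% such words. The authors' mean natural log of estimated counts corresponded to about 33.3 reads for Car12 on water and 584 after DSS. For Car4 it corresponded to 765 and 415. These read numbers are not scaled between the treatments. For Car2, whose TPM was lower after DSS, they were about 1706 on water and 2859 after DSS. They thus give no fold between treatments.

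Car1 and Car2, the main cytosolic enzymes, were the most abundant members in both treatments. Car1 had 412, 476, 711 and 423 TPM in the water-treated controls and 435, 558, 786, 489 and 369 TPM in the labelled knockouts. The values after DSS were 528, 360 and 264 TPM (controls) and 368, 836, 547 and 304 TPM (labelled knockouts). The treatments overlapped throughout. The rescaled mean was 562 ± 153 TPM (SD, n = 9) on water and 389 ± 167 (SD, n = 7) after DSS, while the mean percentile rank was 99.3 in both, so the lower level was not seen by rank.

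Car2 had 398, 396, 434 and 291 TPM in the water-treated controls and 379, 354, 449, 328 and 335 TPM in the labelled knockouts. The DSS-treated controls had 387, 269 and 318 TPM and the DSS-treated labelled knockouts 258, 346, 294 and 258 TPM. On the rescaled scale it was 1.57-fold lower after DSS (406 ± 53.3 on water, n = 9, and 258 ± 42.4 after DSS, n = 7, SD), but on the TPM as deposited only 1.23-fold, and its mean percentile rank was 99.1 in both treatments. The labelled knockouts did not overlap between treatments on the rescaled scale, as held for 18.0% of all genes in the lower direction, and the controls overlapped.

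Car1 and Car2 are also enzymes of red cells. The 8 red cell markers summed to 57.5 to 968 rescaled TPM on water and 23.6 to 252 after DSS, and Hbb-bs, a beta-globin, to 19.3 to 300 and 5.21 to 73.7. The water-treated mice with the highest Car1 were control 3 and labelled knockout 3, which also had the highest red cell sums, 968 and 888. The DSS-treated mouse with the highest Car1, labelled knockout 2, had a red cell sum of 49.6. The part of red cells in the Car1 and Car2 levels was not tested.

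Car13, the third cytosolic enzyme, was the low member of this class. The water-treated controls had 9.52, 8.03, 10.4 and 9.91 TPM and the labelled knockouts 7.68, 7.03, 11.7, 7.02 and 7.64 TPM. After DSS the controls had 22.3, 20.4 and 10.4 TPM and the labelled knockouts 18.8, 20.6, 20.6 and 18.7 TPM. Of the DSS-treated mice, 6 were above every water-treated mouse, and DSS-treated control 3 lay within their range. The rescaled mean was 1.68-fold higher after DSS (16.03 ± 3.59, n = 7, against 9.52 ± 1.75, n = 9, SD) and its percentile rank 85.2 against 77.6.

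These 3 genes are neighbours on chromosome 3 of GRCm38, within 259044 bases. Car13 (14641727 to 14663002, plus strand) and Car2 (14886273 to 14900770, plus strand) flank Car1 (14766216 to 14808368, minus strand). Car3, a muscle enzyme of the same family, averaged 0.177 rescaled TPM on water and 0.032 after DSS. On the rescaled scale the mean of Car13 was higher after DSS and those of Car1 and Car2 lower, with overlap between treatments in each. By mean percentile rank Car1 (99.3) and Car2 (99.1) were the same in both treatments to this precision.

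Car1 was summed over 2 listed transcripts, whose start sites lie 29906 bases apart and which both code for 261 residues. The transcript with the downstream start site (ENSMUST00000094365) took 0.0002 to 28.5% of Car1 TPM in the water-treated mice, with a median of 1.52%, and 0.001 to 8.98% in the DSS-treated mice, with a median of 0.0899%. Its highest share was in water-treated labelled knockout 1 (124 TPM) and its second highest in DSS-treated control 3 (23.7 TPM). The transcript with the upstream start site made up the rest. Between these 2 transcripts, 4.43% of the 31-base words of the downstream one and 5.58% of those of the upstream one tell them apart. Against all annotated Car1 transcripts, only 0.09% of the words of the upstream one were its own.

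Car8, the member without enzyme activity, was the lowest carbonic anhydrase member. It had 2.70, 1.51, 0.704 and 1.99 TPM in the water-treated controls and 1.67, 2.02, 2.21, 1.79 and 2.93 TPM in the labelled knockouts. The DSS-treated controls had 5.70, 4.85 and 3.93 TPM and the DSS-treated labelled knockouts 4.33, 6.73, 4.68 and 5.72 TPM. The treatments did not overlap in TPM as deposited, and overlapped slightly after rescaling, where the highest water-treated mouse had 3.19 and the lowest DSS-treated mouse, control 3, had 3.17. The rescaled mean was 2.06-fold higher after DSS (4.36 ± 0.850, n = 7, against 2.11 ± 0.707, n = 9, SD). The gene (chr4:8143362-8239041, minus strand) has a single annotated transcript, as has Car13, so no other isoform shares its reads.

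The make-up of the carbonic anhydrase pool does not depend on how a table was scaled. Car4 made up 13.6 to 29.3% of the summed TPM of the 6 genes on water (median 20.8%) and 4.02 to 19.3% after DSS (median 6.87%), with overlap only through DSS-treated control 3. The minor enzymes took larger shares after DSS without overlap. A share also rises where the rest of the pool falls, and the rescaled TPM of Car13 and Car8 overlapped between treatments. Car12 made up 0 to 0.716% on water and 2.09 to 5.51% after DSS. Car13 made up 0.599 to 0.962% and 1.37 to 2.79%. Car8 made up 0.0472 to 0.328% and 0.487 to 0.831%. The 3 cytosolic enzymes together held 70.1 to 86.0% on water and 78.2 to 92.7% after DSS. The summed level of the 6 genes was 1264 ± 210 rescaled TPM (SD, n = 9) on water and 751 ± 193 (SD, n = 7) after DSS, and the ranges overlapped.

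**Figure D2:**
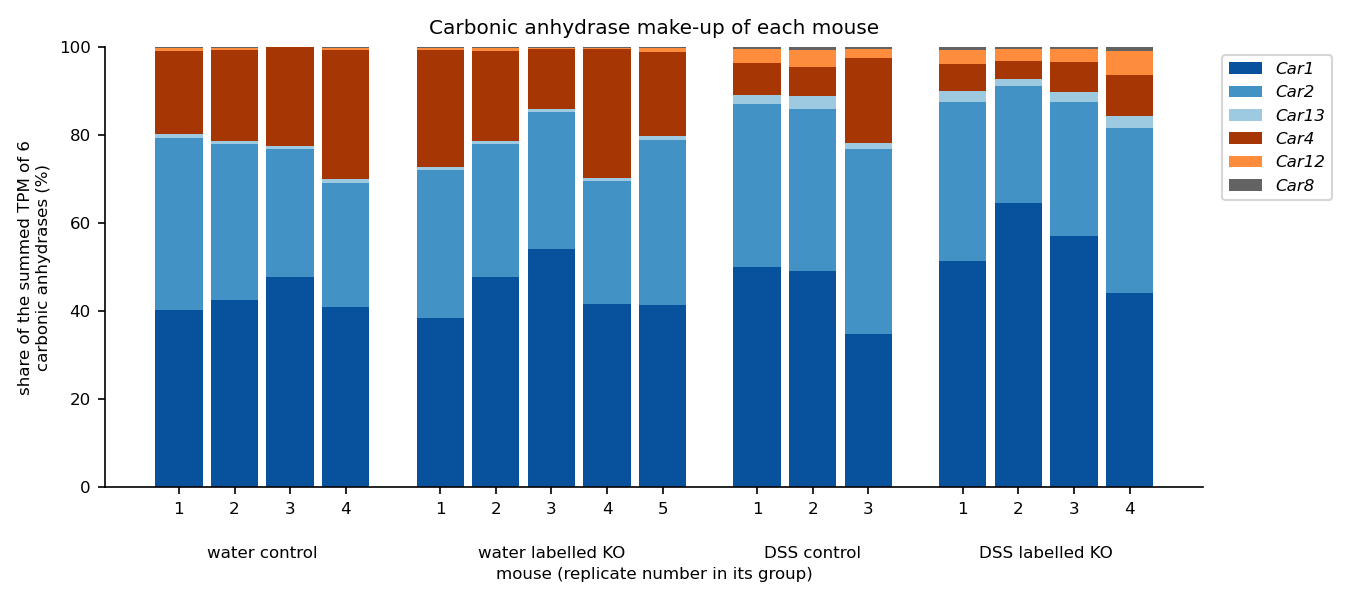
Share of each carbonic anhydrase in the summed TPM of the 6 genes (y axis, percent) in each mouse (x axis, by group and replicate number). The Car4 segment has a median of 20.8% on water and 6.87% after DSS, and the Car12 segment, at most 0.716% on water, reached 5.51% after DSS.

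Aqp8, the apical water channel, was measured through 1 of its coding forms. The tables list 1 of its 3 annotated transcripts (ENSMUST00000098056, plus strand, in a gene at chr7:123462291-123468004), which differs inside the coding sequence from the other protein-coding transcript by 3 bases where exon 2 starts (base 123462571 against 123462574). The listed form codes for 261 residues and the other for 260. The stretch is shown from both transcripts because the measured level rests on it, with the 3 additional bases in capitals.
Aqp8 listed transcript: gatgtctggggagCAGacaccaatgtgta
Aqp8 other transcript: gatgtctggggagacaccaatgtgta

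Only 2.18% of the listed transcript's 31-base words were its own. Aqp8 had 7.77, 0.0217, 0 and 25.0 TPM in the water-treated controls and 28.3, 0.0268, 30.4, 0 and 0 TPM in the labelled knockouts, with values under 0.001 written as 0. The water-treated mice thus fell into 4 mice at 7.77 to 30.4 TPM and 5 near 0, and each cage and genotype held mice of both kinds. After DSS the controls were listed at 0, 0 and 2.40 TPM and the labelled knockouts at 0, 1.44, 1.46 and 2.89 TPM. The 4 high water-treated mice were above all DSS-treated mice and the other 5 were not, so no fold is given. The level of Aqp8 as a gene, over both forms, was not measured by these values.

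**Figure D3:**
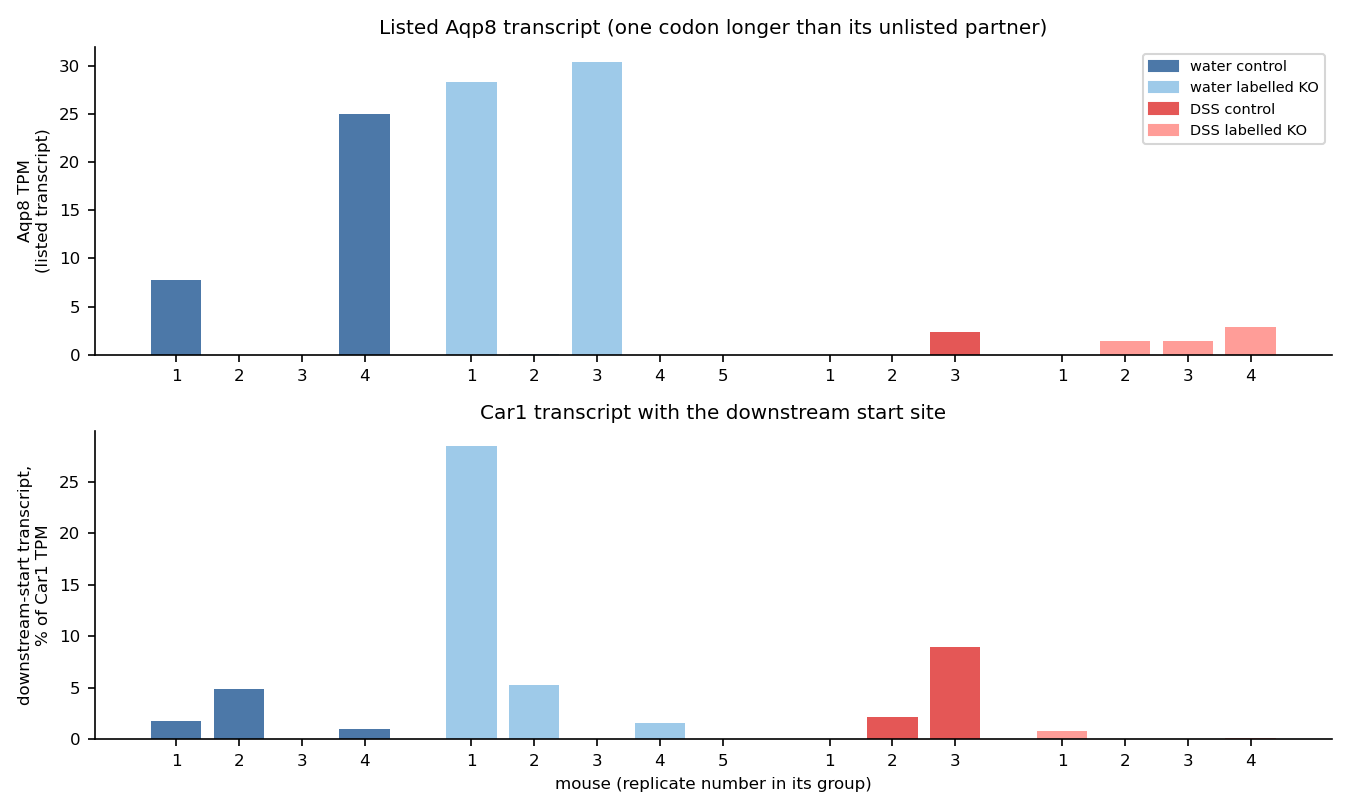
TPM of the listed Aqp8 transcript (upper y axis) and the percentage of Car1 TPM assigned to the transcript with the downstream start site (lower y axis) in each mouse (x axis, by group and replicate number). Aqp8 exceeded 7 TPM in 4 of 9 water-treated mice, and the Car1 transcript reached 28.5% in a single mouse.

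Aqp4, the basolateral water channel, was higher after DSS in every mouse. The water-treated controls had 78.7, 54.1, 81.3 and 55.2 TPM and the labelled knockouts 59.9, 51.4, 74.9, 51.7 and 71.2 TPM. After DSS the controls had 126, 155 and 119 TPM and the labelled knockouts 193, 109, 185 and 200 TPM. After rescaling the highest water-treated mouse had 89.1 and the lowest DSS-treated mouse, labelled knockout 2, had 91.3, so the groups were separated by a narrow margin. The rescaled mean was 132 ± 32.8 (SD, n = 7) after DSS and 69.8 ± 12.9 (SD, n = 9) on water, 1.89-fold higher, and 1.56-fold in controls and 2.17-fold in labelled knockouts. Within a mouse the ratio of Aqp4 to Car4 TPM was 0.151 to 0.415 on water and 0.818 to 4.50 after DSS.

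Aqp4 is also a channel of glia. The 5 enteric glia markers together summed to 0.2 to 2.9 rescaled TPM on water and 0.3 to 2.1 after DSS, and none averaged 1 TPM. Aqp4 had 56.3 or more in every mouse. The part of glia in the Aqp4 level was not tested. Of the words of the listed Aqp4 transcript, 80.7% were absent from the gene's other 10 annotated transcripts. The gene lies at chr18:15389496-15410982 on the minus strand. The listed version of its transcript is not the version in the annotation used for the comparison.

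**Figure D4:**
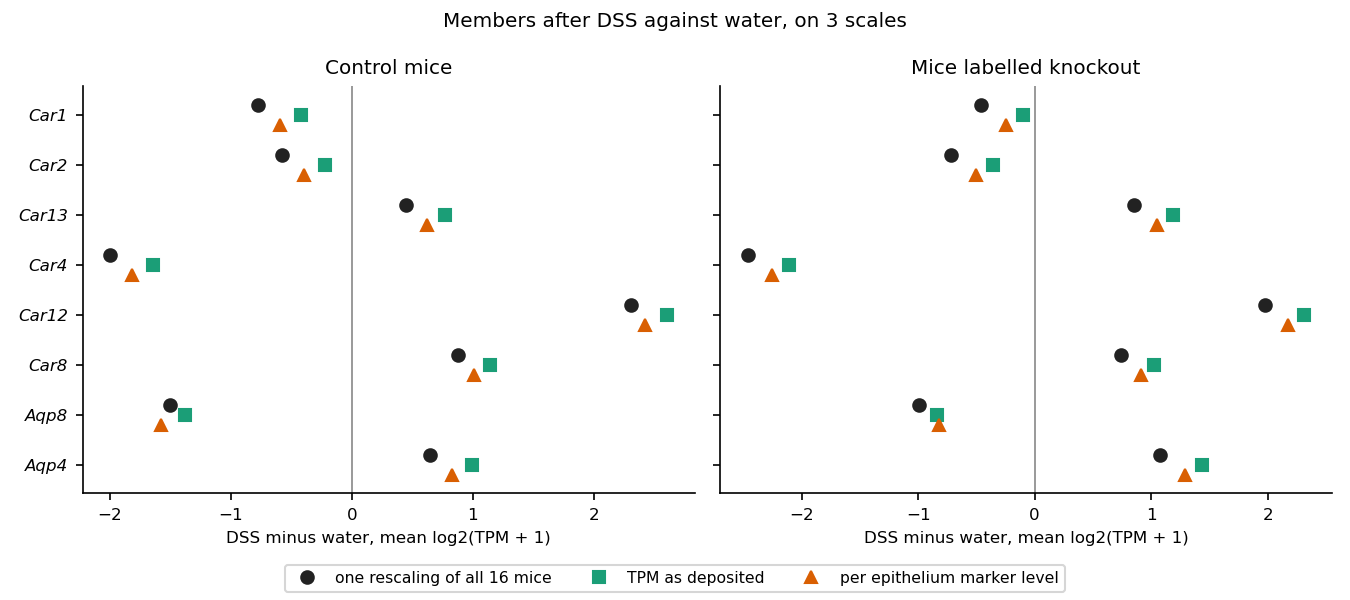
Difference between the DSS and water means of log2(TPM + 1) (x axis) for each gene (y axis) in controls and in labelled knockouts, after a single rescaling, as deposited, and per epithelium marker level. On all 3 scales and in both genotypes Car4, Car1, Car2 and Aqp8 lay below 0. Car12, Car13, Car8 and Aqp4 lay above 0. For Aqp8 this rests on the water-treated mice with high values, as its median was 0.0294 rescaled TPM on water and 1.20 after DSS. The mean percentile ranks of Car1 (99.3) and Car2 (99.1) were the same in both treatments to this precision.

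RNA of markers of other cell types differed between treatments, although the cells had been sorted for EpCAM. The 14 leukocyte markers summed to 1615 to 16076 rescaled TPM on water and 80.1 to 1705 after DSS. Of the 12 with a mean of at least 1 TPM, 8 were lower and 2 (S100a8 and S100a9) higher after DSS without overlap. On the same rescaled scale 7.04% of all genes were lower and 4.49% higher without overlap. Ptprc, the common leukocyte antigen, had 8.14 to 31.9 on water and 0 to 4.13 after DSS. Stroma markers summed to 245 to 841 and 95.5 to 436, and the 6 epithelium markers to 4517 to 6304 and 3597 to 5488. Divided by the geometric mean of the 6 epithelium markers of the same mouse, Car4 was again lower and Car12 and Aqp4 higher without overlap, beside 2.94% of all genes higher and 5.91% lower.

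Marker levels of cell types within the epithelium also differed between treatments. The 15 surface colonocyte markers summed to 4007 to 6833 rescaled TPM on water and 2977 to 4676 after DSS. Without overlap 2 of them were higher and 1 lower after DSS, beside 4.49% and 7.04% of all genes. Their median difference was -0.58 on the log2(TPM + 1) scale. The 9 crypt base and proliferation markers summed to 134 to 213 and 196 to 306, and the 8 goblet and deep crypt secretory markers to 5675 to 9590 and 2228 to 8150. The part of these shifts in the levels of the 8 genes was not tested.

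Genotype was compared within each treatment, which addresses whether loss of epithelial TNFR2 was accompanied by a change in these genes. None of the 8 passed limma's test after DSS (adjusted p under 0.05 over all genes tested), beside 0.00918% of 10899 genes (Tra2a alone). None passed on water, beside 0.00905% of 11046 genes (Dus2 alone), and no member had an unadjusted p under 0.05 in either. The genotypes overlapped in every member in both treatments, as they did in most genes: 3.63% of all genes had no overlap after DSS and 1.52% on water.

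After DSS the largest difference among the carbonic anhydrases was that of Car4, which was 0.56 lower in the labelled knockouts on the log2(TPM + 1) scale, at -0.56 (SE 0.35, 95% interval -1.36 to 0.24, limma adjusted p = 1.00). This interval spans folds of 0.390 to 1.19. Without DSS-treated control 3 the Car4 difference was -0.15. Car1 was at 0.37 (SE 0.38), Car12 at 0.32 (SE 0.27) and Aqp4 at 0.33 (SE 0.23, 95% interval -0.20 to 0.86), each with a limma adjusted p of 1.00. On water Car12 had the largest difference, 0.62 (SE 0.56, 95% interval -0.65 to 1.88, limma adjusted p = 0.867), and it became -0.069 without water-treated control 3, the mouse listed at 0. The intervals of Aqp8, -3.35 to 3.38 on water and -0.86 to 1.96 after DSS, leave folds in either direction possible. Differences of any size within these intervals remain possible with these mice.

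**Figure D5:**
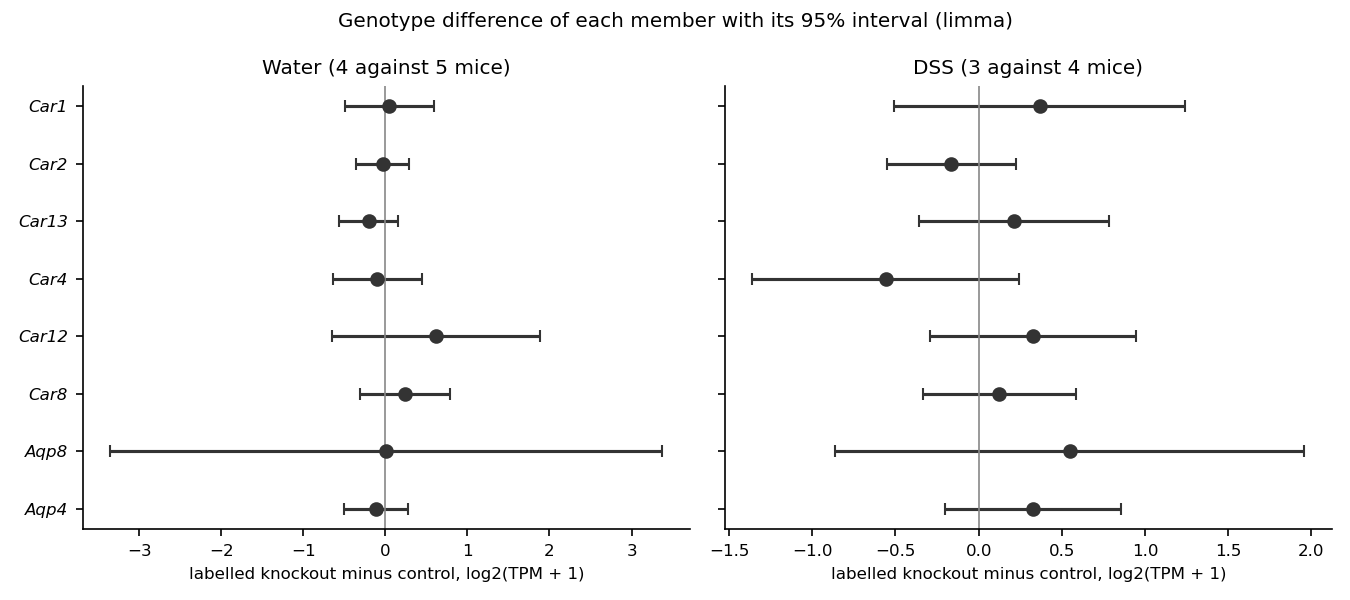
Labelled knockout minus control on the log2(TPM + 1) scale (x axis) for each gene (y axis), on water and after DSS, with points for limma estimates and bars for their 95% intervals. Every interval includes 0, and the widest is that of Aqp8 on water, -3.35 to 3.38.

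The shares within the carbonic anhydrase pool did not separate the genotypes either. In 12 exact two-sided permutation tests (6 genes in each treatment) the smallest Benjamini-Hochberg p was 0.686 after DSS and 0.778 on water. The Car4 share was 11.1 ± 7.06% (SD, n = 3) in the DSS-treated controls and 6.57 ± 2.23% (SD, n = 4) in the labelled knockouts (exact permutation p = 0.343). The Car1 share was 44.7 ± 8.60% and 54.3 ± 8.62% in the same mice (exact permutation p = 0.229).

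Cage and sex formed the same split of the water-treated mice, cage a being male and cage b female. With genotype in the model none of the 8 genes passed limma's test between cages, beside 0.0362% of 11046 genes, among which were the Y-linked genes Eif2s3y and Ddx3y. The limma adjusted p of the members lay between 0.869 and 0.996, and the largest difference was that of Car12, 0.28 (SE 0.59) higher in cage b on the log2(TPM + 1) scale. It became -0.41 without water-treated control 3, in which Car12 was listed at 0.

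The other members of both families were mostly near 0. Of 10 further carbonic anhydrases, Car9, Car15, Car5b and Car11 reached a mean of 1 TPM in some group. Car9, a transmembrane enzyme induced by low oxygen, was higher after DSS without overlap, with 32.2 ± 5.15 rescaled TPM (SD, n = 7) against 19.8 ± 2.16 (SD, n = 9). Car15 had 1.68 on water and 1.05 after DSS, mitochondrial Car5b 1.18 and 0.465, and Car11 0.641 and 0.127, each with overlap. Of 10 further aquaporins, Aqp1, a channel of endothelium and red cells, had 24.5 ± 4.76 on water (SD, n = 9) and 27.1 ± 4.75 after DSS (SD, n = 7), and Aqp11 had 1.96 and 1.94. Car9, Car15, Aqp1 and Aqp11 met the level filter of limma's test in both treatments and Car5b on water alone, and none of them passed it for genotype or cage. Car11 was not tested.

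Bicarbonate and proton transport depends on exchangers and channels that work with these enzymes. Of 30 such genes, 29 were in the tables and 17 had a mean of at least 1 TPM. Of the 17, 2 were higher and 2 lower after DSS without overlap, beside 4.49% and 7.04% of all genes. Limma called 0 of them for genotype or cage. Of all genes it called 0.00918% for genotype after DSS, 0.00905% for genotype on water and 0.0362% for cage. An unadjusted limma p under 0.05 was found for 1 of the 17, after DSS, beside 289 of 10899 genes. The median difference of the 17 was -0.17 on the log2(TPM + 1) scale, against 0.005 over all genes. The 5 largest differences were those of Atp12a, the colonic proton-potassium pump (38.1 on water and 8.70 after DSS, in mean rescaled TPM), Best2, a bicarbonate channel of goblet cells (25.0 and 8.53), Guca2a, which encodes guanylin (962 and 446), Cftr, the chloride and bicarbonate channel (23.7 and 55.2), and Slc26a3, the apical chloride-bicarbonate exchanger (125 and 63.8). Of these, Cftr was higher and Guca2a lower without overlap. The others without overlap were Slc4a7, a sodium bicarbonate cotransporter (2.49 and 5.13), and Slc9a3r1, a scaffold of the apical sodium-proton exchanger (77.2 and 40.5).

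Patterns most like each member's were found by the root-mean-square difference of centred log2(TPM + 1) profiles over all 16 mice, among 7180 genes with a mean of at least 5 rescaled TPM. For Car4 the nearest were Eno3 (0.229) and Cyp2d34 (0.261), with mean rescaled TPM of 87.2 and 92.6 on water and 15.4 and 25.3 after DSS. For Aqp4 they were Cd38 (0.226) and Slc35g1 (0.231). For Car2 they were Enpp5 (0.15) and Rnf149 (0.152), for Car13 Gmfb (0.146) and Gnai3 (0.147), and for Car8 Gcnt3 and Nup37 (both 0.224). Car1 had Rap1a (0.346) and the member Car2 (0.358) nearest. No gene came as near to Car12 (Lpo, 0.557, and Suz12, 0.57) or to Aqp8 (Igkv8-19, 1.349, an immunoglobulin segment, and Aup1, 1.482). The Car12 profile includes water-treated control 3, in which Car12 was listed at 0. The part of this mouse in the distances was not tested.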

How the data were processed

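The 8 genes and all gene lists were chosen with earlier results of these data known. Stranded polyA libraries of single-end reads were made from sorted EpCAM+ cells. The authors quantified transcripts with kallisto and sleuth (build mm10 in the submitters' processing notes) and deposited TPM of APPRIS principal transcripts in 2 tables, water and DSS, each with the authors' mean natural log of estimated counts. The deposited p-values, q-values and log2 ratios compare the genotypes and were not used. Each table has 29373 lines, of which 385 repeat another. TPM was summed over the 28988 unique transcripts by symbol. Depth per mouse is not given by TPM, so no counting interval was computed. Nothing in the labels pools mice, and 1 library is 1 mouse.

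Genotype was tested within a table with limma 3.58.1 (variance trend, log2(TPM + 1), mean of at least 1 TPM, Benjamini-Hochberg, threshold 0.05) and cage with genotype as a covariate, after the script was tested on simulated data. The pseudocount of 1 understates fold changes of low genes. Treatments were compared by range after median-of-ratios rescaling over 9936 genes. Alternatives were a pseudocount of 0.1, other filters and scalings, a cage covariate, a replicate block and leaving out each mouse. Named genes were the 8 members, other family members with a group mean of at least 1 TPM, the 5 transport genes with the largest difference, the 2 nearest patterns, markers, and, chosen after their values were seen, called or non-overlapping genes of lists with 5 or fewer and Car3. Transcript structures came from GENCODE M21 (GRCm38). Promoters came from RefSeq, which held 3 of the 8 genes. R 4.3.3 and Python 3.11.15 were used.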

Additional observations from a re-analysis of the deposited data

Results flagged for a closer look

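Gene TPM and carbonic anhydrase shares gave 42 combinations with groups of 4 or 5 mice. Of these, 3 had a mouse far from the others by Dixon's criterion at the 95% level, where chance gives about 1 in 20. The shares are computed from the same TPM, so the 42 are not independent. Car13 had 11.7 TPM in water-treated labelled knockout 3, and the next highest of the 5 mice had 7.68 (gap over range 0.861). Aqp4 had 109 TPM in DSS-treated labelled knockout 2, and the next lowest of the 4 mice had 185 (0.835). The Car8 share of the carbonic anhydrase pool was 0.328% in water-treated labelled knockout 5, and the next highest had 0.173% (0.862).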

How the results depend on the processing

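No member was called for genotype or cage under any alternative run, including the fit with a replicate block (0 members on water and 0 after DSS). Mice with the same replicate number were different animals, and the correlation of their residuals within a treatment lay between -0.197 and 0.0932, so the numbers were not taken as pairs. The block moved the count of all genes called from 1 to 0 in each treatment. Of 155 values of member differences for genotype or cage under settings with all mice, 151 kept their direction. The others were small differences on water, where genotype gave -0.27 for Car1 and -0.018 for Aqp8 under quantile normalization, 0.029 for Car4 with the replicate block and -0.29 for Aqp8 with a pseudocount of 0.1. The cause was not tested. The signs of differences this small are not determined.

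Leaving out each mouse in turn gave these ranges where the sign changed. For genotype after DSS, Car13 ranged from -0.11 to 0.41, with the lowest value without DSS-treated control 3. For genotype on water, Car1 ranged from -0.11 to 0.23, Car2 from -0.16 to 0.035, Car4 from -0.24 to 0.029, Car12 from -0.069 to 0.94 and Aqp8 from -0.74 to 0.92. For cage, Car1 ranged from -0.24 to 0.096, Car4 from -0.28 to 0.008, Car8 from -0.022 to 0.38, Car12 from -0.41 to 0.67, Car13 from -0.073 to 0.13 and Aqp8 from -1.06 to 1.15.

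The number of members without overlap between treatments was 3 after the single rescaling and per epithelium marker level, and 4 (with Car8) as deposited, by percentile rank and with the listed TPM of each mouse set to the same total. Leaving out a mouse gave 3 to 5, and 5 without DSS-treated control 3. The scaling per epithelium marker level was chosen after seeing the data. The treatment differences of the members had 24 values under other scalings. Of these, 17 differed from the rescaled value by less than the SD of mice within a treatment, and 7 moved further. As deposited, 18.9% of all genes were higher without overlap and 4.22% lower, by percentile rank 10.0% and 5.73%, and with equal listed totals 11.6% and 3.6%, against 4.49% and 7.04% after rescaling. The authors' mean log estimated counts corresponded to about 19.9 reads for Car8 and 33.3 for Car12 on water and 3.5 for Aqp8 after DSS, so these levels rest on few reads. Counts per mouse were not used here, and the isoform assignments of Car1, Car12 and Aqp8 could not be recomputed.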
